A study of Homo sapiens with 8 samples.

Results

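A set of 10 genes of the unfolded protein response and the integrated stress response were followed in Raji and Raji-4RH cells with and without chidamide. They were HSPA5, HSP90B1, DDIT3, ATF3, ATF4, ERN1, HERPUD1, DNAJB9, ASNS and TRIB3. The genes were picked by name as known members of these pathways, with no measured value in the rule. Earlier results of these data were known when they were picked. All 10 of 10 were found among the 63967 gene labels of the expression table, and all 10 passed the filter on low values (at least 1 FPKM in at least 2 libraries). Raji is a human Burkitt lymphoma line, and Raji-4RH was derived from it by repeated exposure to rituximab, the antibody to CD20, so that 1 resistant line is set against its 1 parent line. Each line was treated for 24 h with 3 μM chidamide, a benzamide inhibitor of histone deacetylases, or with the vehicle DMSO, and RNA-seq was made from 2 libraries in each of the 4 groups. Nothing in the sources used here says that the 2 libraries of a group came from separate cultures, so the p-values measure the spread between these libraries, which may be technical.

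The endoplasmic reticulum (ER) folds the proteins that a cell secretes or displays. When unfolded proteins gather there, 3 sensors start the unfolded protein response, namely IRE1 (the product of ERN1), PERK (EIF2AK3) and ATF6. IRE1 splices the XBP1 messenger RNA and ATF6 is cut to release a transcription factor, and both then raise ER chaperones and degradation factors. PERK belongs to the family of kinases that phosphorylate the initiation factor eIF2, which slows translation in general but favours translation of ATF4. Lack of amino acids and other stresses feed into the same step through other kinases, and this common route is the integrated stress response. ATF4 in turn drives genes of amino acid supply, such as ASNS, together with DDIT3 (CHOP) and TRIB3. B-lineage cells depend on this system when they become secretory. Gene-level RNA values carry no information on XBP1 splicing, eIF2 phosphorylation or the amount of ATF4 protein.

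The promoter letters are shown first because they hold the elements through which the ER arm and the ATF4 arm are known to act on their targets. In the 250 bases before each RefSeq start (GRCh38.p14, RefSeq), 16 windows covered all 10 members, and 4 motifs were searched on both strands. The ER stress response element, read here as CCAAT, any 9 bases and CCACG, was in 0.074% of the 35116 promoters of the same length. Its second form, ATTGG, any 1 base and CCACG, was in 0.0513%. The C/EBP-ATF element TGATGNAA, which ATF4 is known to bind, was in 3.14%, and the ATF6 and XBP1 site TGACGTG was in 1.68%. No 2 of the matches below overlap. Of the members, 5 had at least 1 motif. HSPA5 had the first form from 66 to 48 bases before its start. HSP90B1 had it at 2 places, the first from 194 to 176 bases before the start and the other, on the opposite strand, from 89 to 71 bases before it. HERPUD1 had the second form from 117 to 107 bases before the start and a C/EBP-ATF element on the opposite strand from 176 to 169 bases before it. ASNS had the C/EBP-ATF element from 68 to 61 and ATF3 from 191 to 184 bases before a start. DDIT3, ATF4, ERN1, DNAJB9 and TRIB3 had none of these letters in their windows, and TGACGTG was in no member's window. For ATF4, ERN1 and DNAJB9 all 250 bases of a window lay within an annotated exon (GENCODE v29). Absence of the letters says nothing of the sequence outside these windows. Capitals mark the motif, and each stretch is written 5′ to 3′ on the gene's strand.
HSPA5 promoter, chr9:125241344-125241593, minus strand: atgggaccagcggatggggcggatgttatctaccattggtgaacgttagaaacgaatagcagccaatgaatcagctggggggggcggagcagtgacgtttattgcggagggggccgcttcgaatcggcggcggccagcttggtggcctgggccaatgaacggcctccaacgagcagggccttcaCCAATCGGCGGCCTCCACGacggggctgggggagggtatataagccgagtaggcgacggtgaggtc
HSP90B1 far site, chr12:103930211-103930240, plus strand: cctgaCCAATCGGAAGGAGCCACGcttcgg
HSP90B1 near site, chr12:103930316-103930345, plus strand: gggtgCGTGGTGCGGCGCGATTGGtgggtt
HERPUD1 promoter, chr16:56931892-56932047, plus strand: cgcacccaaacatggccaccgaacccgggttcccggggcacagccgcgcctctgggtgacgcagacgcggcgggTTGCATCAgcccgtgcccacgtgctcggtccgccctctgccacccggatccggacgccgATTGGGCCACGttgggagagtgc
ASNS site, chr7:97872458-97872487, minus strand: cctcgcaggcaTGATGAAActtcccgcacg
ATF3 promoter, chr1:212565157-212565333, plus strand: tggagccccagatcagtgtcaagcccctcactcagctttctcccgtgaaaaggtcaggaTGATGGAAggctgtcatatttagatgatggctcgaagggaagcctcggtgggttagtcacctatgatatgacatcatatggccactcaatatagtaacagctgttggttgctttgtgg

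The library totals lay between 13991697 reads in Raji-4RH chidamide replicate 1 and 21193441 in Raji-4RH DMSO replicate 2. Levels are given as FPKM, the read number of a gene scaled for gene length and library total. Past the first stretch of rows the values in the table stand below their labels, and each gene was given the values of its own row as placed. HSPA5, ATF4, HERPUD1, DNAJB9, ASNS and TRIB3 lie before the first shift, HSP90B1 and ATF3 were read 3 rows below their labels, and DDIT3 and ERN1 5 rows below. The placing of HSP90B1 is easy to see, since its row held 65347 reads over the 8 libraries between rows of 12 and 7. DDIT3 is the least clear, with 3210 reads between rows of 7185 and 856, against 2280 in the row of its label. ATF3 and ERN1 rest on the placing too. ATF3 had 747 reads between rows of 0 and 10911, against 0 in the row of its label. ERN1 had 5813 between rows of 17542 and 448, against 1 in the row of its label. The B cell markers CD79A, CD79B, MS4A1, CD22, PAX5, CD74 and BLK were present in every library, from a lowest level of 12.5 FPKM for MS4A1 to a highest of 1320 FPKM for CD74. Of 10 markers of other cell types, 9 could be placed. Their summed level per library was 3.06 to 3.66 FPKM with DMSO and 15.03 to 15.04 with chidamide in Raji-4RH, and 2.60 to 2.98 with DMSO and 6.55 to 7.93 with chidamide in Raji. The 4 that passed the filter all rose in Raji-4RH (3 under quantile normalization) and 3 rose in Raji (2 under quantile normalization). Of these, CD3E, LYZ and COL1A1 had means under 1 FPKM in both DMSO groups. The filter thus kept them mainly through chidamide libraries, so their rise is not independent of it. CD3D was at 0 in both DMSO groups, CD8A in both Raji groups, and EPCAM in Raji-4RH DMSO and Raji chidamide. The part of this rise with chidamide in the results below was not tested.

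**Figure D1:**
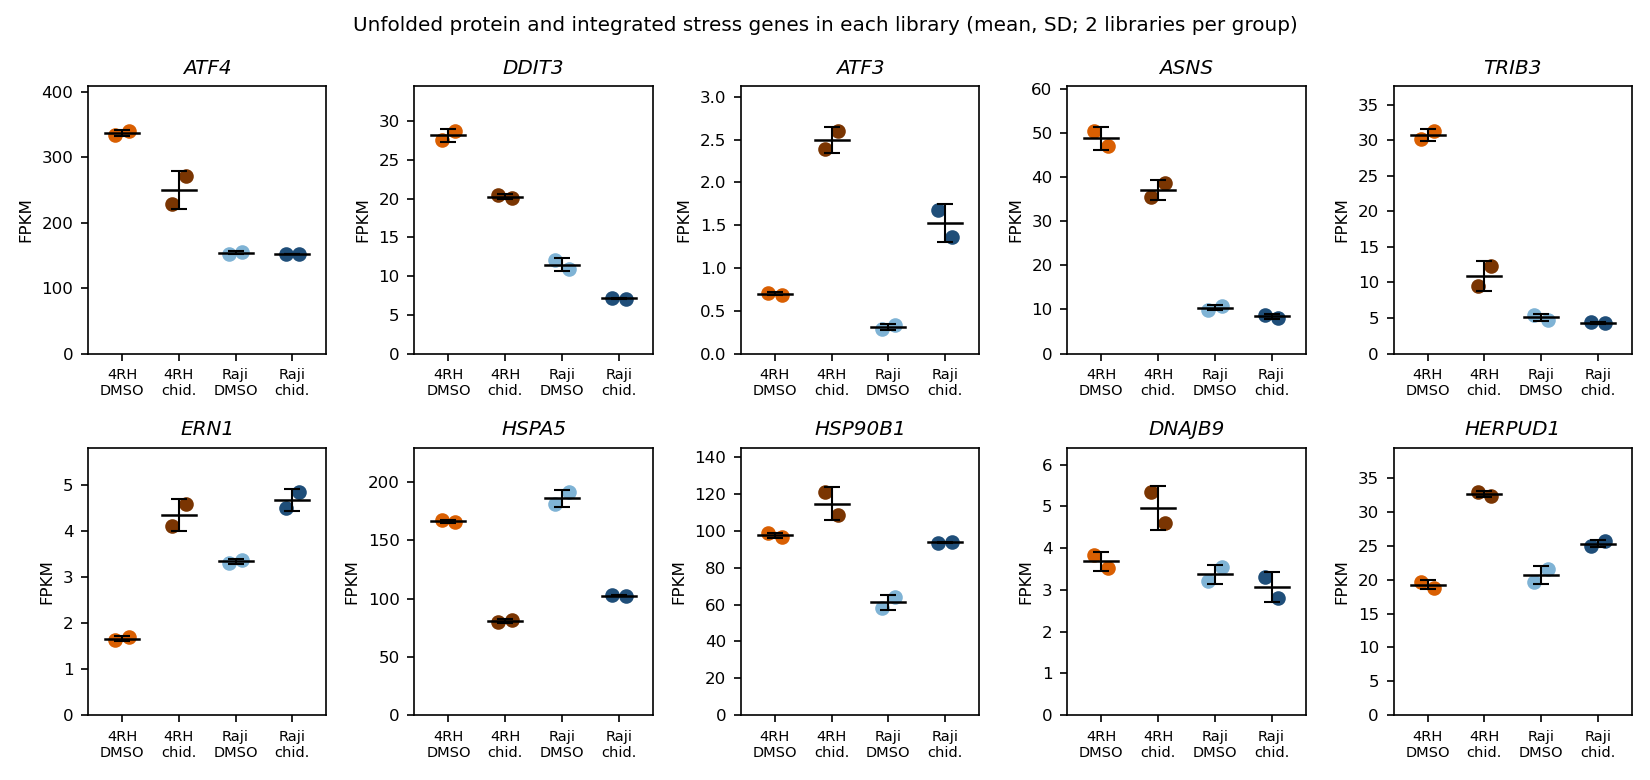
FPKM of the 10 genes in each of the 8 libraries, 1 panel per gene with its own scale from 0. Points are libraries, the long bar is the group mean and the whisker the SD of 2 libraries. ATF4, DDIT3, ASNS and TRIB3 stand highest in Raji-4RH DMSO, and ATF3 is highest in Raji-4RH chidamide.

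Without chidamide, ATF4 and the factors and targets downstream of it (DDIT3, ATF3, ASNS and TRIB3, together the ATF4 group) stood higher in Raji-4RH than in Raji. Of the 10 members, 8 passed the test between Raji-4RH DMSO and Raji DMSO (limma, adjusted p under 0.05), against 73.6% of the 10710 genes tested. Higher in Raji-4RH were 6 members, HSP90B1, DDIT3, ATF3, ATF4, ASNS and TRIB3, and lower were HSPA5 and ERN1. Of all genes, 41.2% were higher and 32.4% lower. The size of the change set 4 members apart, since DDIT3, ATF4, ASNS and TRIB3 were higher by at least 1 on the log2(FPKM + 1) scale, against 8.53% of all genes, and none was lower by as much, against 7.37%. The members' median difference was 0.52 and that of all genes was 0.063.

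With chidamide the members moved in both directions. In Raji-4RH all 10 differed from DMSO, against 74.9% of all genes, so the count itself is close to what most genes did. HSP90B1, ATF3, ERN1, HERPUD1 and DNAJB9 rose, and HSPA5, DDIT3, ATF4, ASNS and TRIB3 fell, while 43.3% of all genes rose and 31.6% fell. Under quantile normalization the split over all genes turned from 4642 higher and 3380 lower to 3718 higher and 4057 lower, and the median of all genes moved from 0.093 to -0.022. A log2 change of 1 or more was reached by 4 members, against 15.1% of all genes. ATF3 and ERN1 rose by that much, against 10.1%, and HSPA5 and TRIB3 fell by it, against 5.05%. ATF3 passed the filter only through chidamide libraries, so its rise in either line is conditional on the filter. Of the 4, only TRIB3 stayed past 1 in size under every alternative (-1.60 to -1.25). At their smallest, the changes were -0.72 for HSPA5, 0.72 for ERN1 and 0.55 for ATF3. In Raji 7 members differed, against 60.0% of all genes: HSP90B1, ATF3, ERN1 and HERPUD1 rose, and HSPA5, DDIT3 and ASNS fell. Of all genes, 31.5% rose and 28.5% fell. ATF4, DNAJB9 and TRIB3 did not pass the test there. No member reached a change of 1 on the log2(FPKM + 1) scale in Raji, against 5.23% of all genes (4.37% upward and 0.859% downward). That scale understates low genes, since mean FPKM of ATF3 in Raji was 4.92 times higher with chidamide than with DMSO. For the split over all genes in Raji, quantile normalization gave 2643 higher and 3432 lower in place of 3370 and 3051. The chidamide effects in the 2 lines differed for 6 members, against 48.8% of all genes. The effect was higher in Raji-4RH for ERN1, HERPUD1 and DNAJB9, against 27.2%, and lower for HSP90B1, ATF4 and TRIB3, against 21.7%. A difference of at least 1 on the log2 scale was found for TRIB3 alone of the members, which was lower, against 6.31% of all genes in either direction, 4.07% upward and 2.24% downward. These comparisons share libraries, since the DMSO libraries of a line enter its chidamide effect, the difference of effects and the comparison of the lines.

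**Figure D2:**
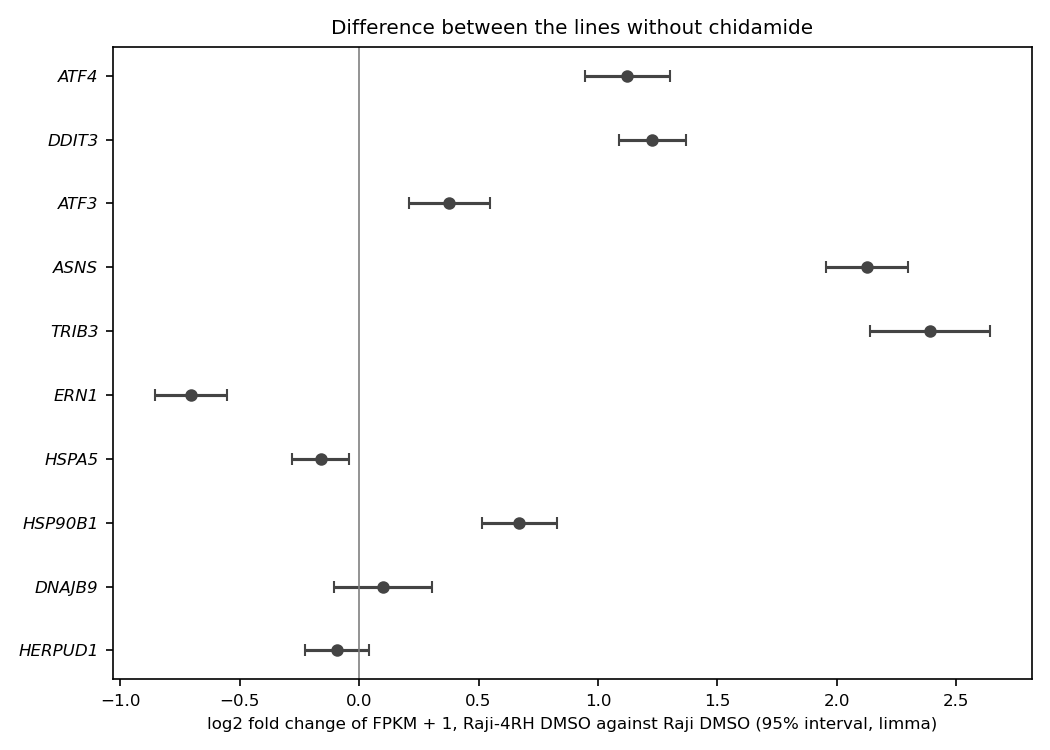
Difference between Raji-4RH DMSO and Raji DMSO for each gene, as a log2 fold change of FPKM + 1 with its 95% interval from limma; values above 0 are higher in Raji-4RH. TRIB3 and ASNS lie above 2, DDIT3 and ATF4 above 1, and ERN1 lies lowest at -0.70.

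ATF4 (chromosome 22 from 39519695 to 39522685, plus strand, in GRCh38 and GENCODE v29, as for all genes here), the transcription factor at the centre of the integrated stress response, had the highest mean level of the 10 over the 8 libraries. ATF4 was at 334.3 and 340.9 FPKM with DMSO and 229.4 and 270.9 with chidamide in Raji-4RH, and at 152.9 and 155.9 with DMSO and 152.9 and 152.6 with chidamide in Raji. The Raji-4RH libraries stood above every Raji library in either treatment, and the 2 Raji groups were nearly level. Raji-4RH DMSO was 2.19 times Raji DMSO (log2 difference 1.12 ± 0.077 SE, adjusted p = 2.8e-06, limma). In Raji-4RH chidamide lowered ATF4 by a log2 value of 0.44 ± 0.077 SE (adjusted p = 0.00091). In Raji the log2 change was -0.015, with a 95% interval from -0.19 to 0.16 (adjusted p = 0.883). The effects differed by -0.42 on the log2 scale (adjusted p = 0.0135). That difference lost its call without Raji-4RH DMSO replicate 2 (-0.41, adjusted p = 0.0551), without Raji chidamide replicate 1 (-0.42, adjusted p = 0.0513) and without Raji chidamide replicate 2 (-0.42, adjusted p = 0.0506).

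DDIT3 (chromosome 12 from 57516588 to 57521737, minus strand) encodes CHOP, a C/EBP-family factor linked to cell death under lasting ER stress. DDIT3 was at 27.6 and 28.8 FPKM with DMSO and 20.49 and 20.03 with chidamide in Raji-4RH, and at 12.1 and 10.9 with DMSO and 7.17 and 7.09 with chidamide in Raji. The 4 groups did not overlap and kept the order of the lines before that of the treatments. Raji-4RH DMSO was 2.46 times Raji DMSO (log2 1.23 ± 0.061 SE, adjusted p = 3.8e-07, limma). Chidamide lowered it by a log2 value of 0.46 in Raji-4RH (adjusted p = 0.00016) and of 0.62 in Raji (adjusted p = 5.7e-05), a difference of 0.16 with a 95% interval from -0.038 to 0.36 (adjusted p = 0.158). Quantile normalization brought this difference past the threshold (0.34, adjusted p = 0.0136). The exons of DDIT3 share 355 bases with MARS on the other strand, and 105 and 58 bases with AC022506.1 and MBD6. How strand entered the counting is not given in the sources used here, so reads of these genes cannot be told apart. In the row of its label, the signs of the DDIT3 differences between the lines and with chidamide would all be the opposite, so they rest on the placing.

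ATF3 (chromosome 1 from 212565334 to 212620777, plus strand), an ATF-family factor induced by many stresses, had the lowest mean level and the only one of the ATF4 group that rose. ATF3 was at 0.713 and 0.689 FPKM with DMSO and 2.39 and 2.61 with chidamide in Raji-4RH, and at 0.288 and 0.332 with DMSO and 1.68 and 1.37 with chidamide in Raji. Both chidamide groups lay above both DMSO groups without overlap. No DMSO library reached 1 FPKM, so ATF3 passed the filter only through the chidamide libraries. Its calls with chidamide are conditional on that. The reads behind these levels were 54 and 59, 135 and 194, 23 and 27, and 140 and 115. Mean FPKM with chidamide was 3.56 times DMSO in Raji-4RH and 4.92 times in Raji. On the log2(FPKM + 1) scale, which understates changes of low genes, the rises were 1.04 ± 0.074 SE (adjusted p = 3.6e-06, limma) and 0.94 ± 0.074 SE (adjusted p = 1.6e-05). Between the lines the effect differed by 0.096, with a 95% interval from -0.14 to 0.34 (adjusted p = 0.477), and this sign turned with a pseudocount of 0.1 (-0.28) and with voom on recovered reads (-0.43). Between the lines without chidamide it was higher in Raji-4RH by 0.38 (adjusted p = 0.00173), which did not hold under quantile normalization (0.088, adjusted p = 0.328).

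ASNS (chromosome 7 from 97852118 to 97872542, minus strand), the asparagine synthetase, carried a large difference between the lines and a small one with chidamide. ASNS was at 50.6 and 47.0 FPKM with DMSO and 35.4 and 38.7 with chidamide in Raji-4RH, and at 9.96 and 10.9 with DMSO and 8.85 and 7.96 with chidamide in Raji. Raji-4RH was more than 4 times Raji in both treatments, at 4.69 times with DMSO and 4.41 times with chidamide. The difference between the DMSO groups was 2.13 ± 0.075 SE on the log2 scale (adjusted p = 5.1e-08, limma). Chidamide lowered ASNS by a log2 value of 0.39 in Raji-4RH (adjusted p = 0.00147), a call that was lost under quantile normalization (-0.13, adjusted p = 0.188). In Raji it fell by 0.28 (adjusted p = 0.0116), which was lost without Raji DMSO replicate 2 (-0.22, adjusted p = 0.0821) and without Raji chidamide replicate 2 (-0.21, adjusted p = 0.0976). The effects differed by -0.11, with a 95% interval from -0.35 to 0.13 (adjusted p = 0.423). ASNS shares 1985 exon bases with AC079781.5 on the same strand.

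TRIB3 (chromosome 20 from 362835 to 397559, plus strand), a pseudokinase that is a target of ATF4 and CHOP and dampens their activity, had the widest range of the 10. TRIB3 was at 30.2 and 31.4 FPKM with DMSO and 9.45 and 12.4 with chidamide in Raji-4RH, and at 5.43 and 4.71 with DMSO and 4.40 and 4.24 with chidamide in Raji. The Raji-4RH DMSO libraries stood far above the rest. They were 6.07 times Raji DMSO, a log2 difference of 2.39 ± 0.11 SE (adjusted p = 2.5e-07, limma). In Raji-4RH DMSO was 2.83 times chidamide, so that TRIB3 fell by a log2 value of 1.43 ± 0.11 SE (adjusted p = 5.6e-06). In Raji the log2 change was -0.19, with a 95% interval from -0.44 to 0.063 (adjusted p = 0.171). The same change passed the threshold when Raji-4RH chidamide replicate 1 (adjusted p = 0.0317) or replicate 2 (adjusted p = 0.0321) was left out of the shared fit. TRIB3 had the largest difference of chidamide effects among the members, -1.24 ± 0.16 SE (adjusted p = 0.00038), and with chidamide Raji-4RH was still 2.52 times Raji.

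**Figure D3:**
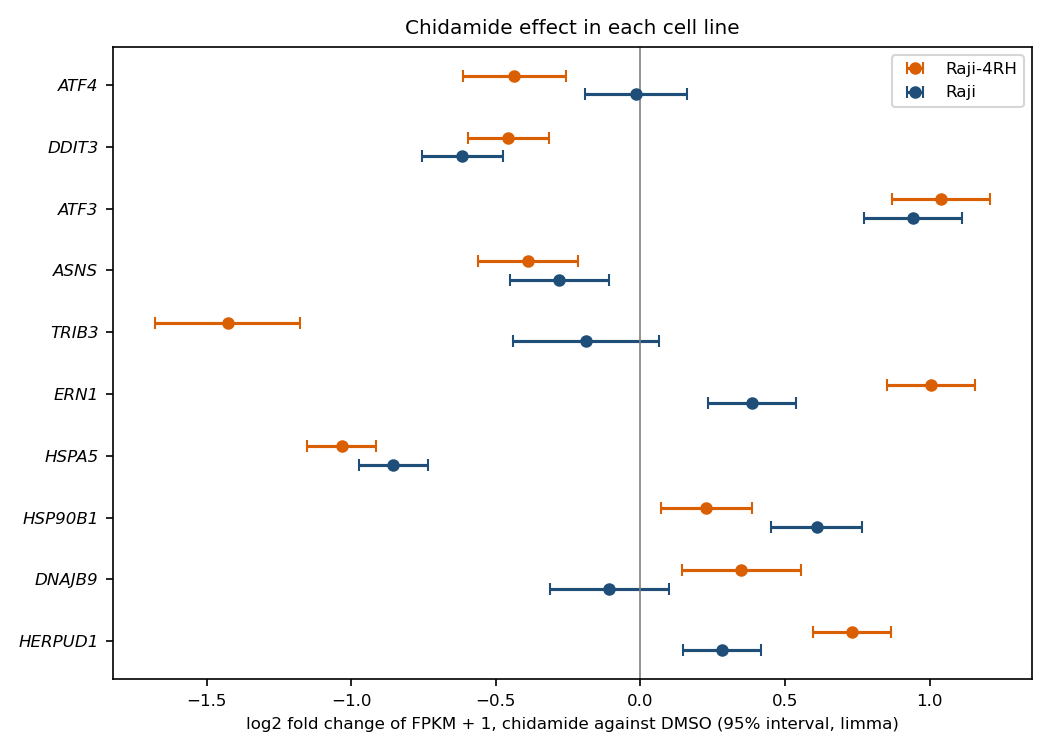
Chidamide effect on each gene in Raji-4RH and in Raji, as a log2 fold change of FPKM + 1 with its 95% interval from limma. HSPA5 and ATF3 moved by similar amounts in both lines, while TRIB3 fell by 1.43 in Raji-4RH and its interval in Raji crosses 0.

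ERN1 (chromosome 17 from 64039142 to 64130819, minus strand), which encodes the IRE1 sensor, was lowest in untreated Raji-4RH and rose with chidamide in both lines. ERN1 was at 1.63 and 1.69 FPKM with DMSO and 4.10 and 4.59 with chidamide in Raji-4RH, and at 3.31 and 3.37 with DMSO and 4.50 and 4.84 with chidamide in Raji. The 2 chidamide groups overlapped each other, and the DMSO groups did not. The log2 rise was 1.00 ± 0.066 SE in Raji-4RH (adjusted p = 2.3e-06, limma) and 0.39 ± 0.066 SE in Raji (adjusted p = 0.00117). This was a difference of effects of 0.62 (adjusted p = 0.00101). Raji-4RH DMSO was below Raji DMSO by a log2 value of 0.70 (adjusted p = 2e-05), and mean FPKM in Raji was 2.01 times that in Raji-4RH.

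HSPA5 (chromosome 9 from 125234853 to 125241330, minus strand) encodes BiP, the main ER chaperone, which also holds the sensors inactive. HSPA5 was at 167.2 and 165.6 FPKM with DMSO and 79.7 and 82.0 with chidamide in Raji-4RH, and at 181.2 and 191.5 with DMSO and 102.9 and 102.2 with chidamide in Raji. Every chidamide library lay below every DMSO library. DMSO was 2.06 times chidamide in Raji-4RH, a log2 fall of 1.03 ± 0.052 SE (adjusted p = 5.5e-07, limma). In Raji it was 1.82 times, a log2 fall of 0.86 ± 0.052 SE (adjusted p = 4.2e-06). The effects differed by -0.18, with a 95% interval from -0.35 to -0.0087 and an adjusted p of 0.0774, and the sign turned under quantile normalization (0.086). This difference passed the threshold with median-centred libraries (-0.21, adjusted p = 0.0436) and without Raji-4RH chidamide replicate 2 (-0.20, adjusted p = 0.0221). Raji-4RH DMSO was lower than Raji DMSO by 0.16 (adjusted p = 0.0205), a call that was lost without Raji-4RH DMSO replicate 1 (-0.17, adjusted p = 0.0836), without Raji-4RH DMSO replicate 2 (-0.16, adjusted p = 0.105) and without Raji DMSO replicate 2 (-0.12, adjusted p = 0.114).

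HSP90B1 (chromosome 12 from 103930107 to 103953645, plus strand) encodes GRP94, the HSP90 of the ER. It shares the first form of the ER stress element with HSPA5 and moved the other way with chidamide. HSP90B1 was at 98.7 and 96.8 FPKM with DMSO and 121.1 and 108.5 with chidamide in Raji-4RH, and at 58.4 and 63.9 with DMSO and 93.5 and 94.0 with chidamide in Raji. No groups overlapped, and Raji DMSO stood lowest. In Raji the log2 rise was 0.61 ± 0.068 SE (adjusted p = 0.00011, limma). In Raji-4RH it was 0.23 ± 0.068 SE (adjusted p = 0.0149), which did not hold without Raji-4RH DMSO replicate 1 (0.24, adjusted p = 0.0555), without Raji-4RH DMSO replicate 2 (0.21, adjusted p = 0.0830) or with median-centred libraries (0.15, adjusted p = 0.0990). The effects differed by -0.38 (adjusted p = 0.0119), lost without Raji-4RH DMSO replicate 1 (-0.37, adjusted p = 0.0504). Raji-4RH DMSO was above Raji DMSO by 0.67 (adjusted p = 3.3e-05). Exon bases are shared with TTC41P, C12orf73 and MIR3652.

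HERPUD1 (chromosome 16 from 56932048 to 56944863, plus strand), a membrane protein of ER-associated degradation, rose in both lines. HERPUD1 was at 19.7 and 18.8 FPKM with DMSO and 33.0 and 32.4 with chidamide in Raji-4RH, and at 19.7 and 21.6 with DMSO and 24.9 and 25.7 with chidamide in Raji. The DMSO groups overlapped, and the chidamide groups stood above them and apart from each other. The log2 rise was 0.73 ± 0.058 SE in Raji-4RH (adjusted p = 7.1e-06, limma) and 0.28 ± 0.058 SE in Raji (adjusted p = 0.00329). The rise in Raji-4RH was larger by 0.45 (adjusted p = 0.00267). The DMSO groups differed by -0.094, with a 95% interval from -0.23 to 0.040 (adjusted p = 0.176).

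DNAJB9 (chromosome 7 from 108569568 to 108574850, plus strand), an ER co-chaperone of BiP and a known target of XBP1, was at 3.83 and 3.53 FPKM with DMSO and 5.34 and 4.59 with chidamide in Raji-4RH, and at 3.21 and 3.54 with DMSO and 3.32 and 2.81 with chidamide in Raji. Raji-4RH chidamide stood above the other 3 groups, which ran into each other. The log2 rise in Raji-4RH was 0.35 ± 0.089 SE (adjusted p = 0.00692, limma), and it was lost without Raji-4RH DMSO replicate 2 (0.30, adjusted p = 0.0512) and under quantile normalization (0.15, adjusted p = 0.220). In Raji the log2 change was -0.11, with a 95% interval from -0.31 to 0.097 (adjusted p = 0.332). The effects differed by 0.46 (adjusted p = 0.0176), which was lost without Raji-4RH DMSO replicate 2 (0.41, adjusted p = 0.0669), without Raji DMSO replicate 2 (0.40, adjusted p = 0.0661) and without Raji chidamide replicate 2 (0.37, adjusted p = 0.0692). DNAJB9 shares exon bases with PNPLA8 and THAP5 on the other strand.

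The other genes of these pathways were counted by list, to be read beside the genes tested over the whole table. Of those, 43.3% rose and 31.6% fell in Raji-4RH, and 31.5% rose and 28.5% fell in Raji. The lists were chosen with earlier results of these data known, so their counts are a description. Among ER stress sensors and the proteins that process them, 5 of 9 tested genes rose with chidamide in Raji-4RH and 1 fell, and in Raji 2 rose and 2 fell. Their median log2 change was 0.29 in Raji-4RH and -0.056 in Raji, beside 0.093 and 0.017 over all genes. EIF2AK3, the PERK sensor, had log2 changes of 0.084 (adjusted p = 0.319, limma) and -0.070 (adjusted p = 0.438), the first past the threshold under quantile normalization (0.28, adjusted p = 0.0073). ATF6 rose by 0.29 in Raji-4RH, a call lost under quantile normalization (0.17, adjusted p = 0.0639), and by 0.48 in Raji. XBP1, the substrate of IRE1, rose by 0.60 in Raji-4RH, while its log2 change in Raji was -0.15 (adjusted p = 0.0933), past the threshold with median-centred libraries (-0.19, adjusted p = 0.0254), with only the Raji libraries (adjusted p = 0.0167) and without Raji-4RH chidamide replicate 1 (adjusted p = 0.00882) or replicate 2 (adjusted p = 0.00886). WFS1, an ER membrane protein mutated in Wolfram syndrome, rose by 1.40 in Raji-4RH against a log2 change of -0.015 in Raji. CREB3, an ER-bound factor, rose by 0.66 and 0.56, and TRAF2, an adaptor of IRE1, fell by 0.63 and 0.31.

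ER chaperones and folding enzymes mostly fell with HSPA5. Of 19 tested, 3 rose and 12 fell in Raji-4RH, and 2 rose and 11 fell in Raji, with medians of -0.44 and -0.25. MANF, an ER stress-induced secreted factor, fell by 1.18 in Raji-4RH and 1.17 in Raji. SDF2L1, a partner of BiP, fell by 1.15 and 0.97 (adjusted p = 2.5e-06 and 1.7e-05, limma). ERO1B, an oxidase that renews disulfide bonds, went the other way, with rises of 1.28 and 0.69, and DNAJC10, a disulfide reductase, rose by 0.55 and 0.46. ER-associated degradation was mixed, with 5 of 20 higher and 9 lower in Raji-4RH and 3 higher and 7 lower in Raji, and quantile normalization turned the first split to 8 higher and 7 lower. Over all genes the shares were 43.3% higher and 31.6% lower in Raji-4RH and 31.5% and 28.5% in Raji. HERPUD2 rose by 0.97 and 0.51. EDEM3 rose by 0.63 in Raji-4RH, beside a log2 change of 0.13 in Raji (adjusted p = 0.0623), past the threshold with no filter (adjusted p = 0.0482), with voom (adjusted p = 0.0459) and without Raji-4RH chidamide replicate 1 (adjusted p = 0.0464) or replicate 2 (adjusted p = 0.0461). UFD1, a cofactor of the p97 extraction machine, fell by 1.00 and 0.33, and the ubiquitin-conjugating enzyme UBE2J1 fell by 0.80 and 0.89.

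**Figure D4:**
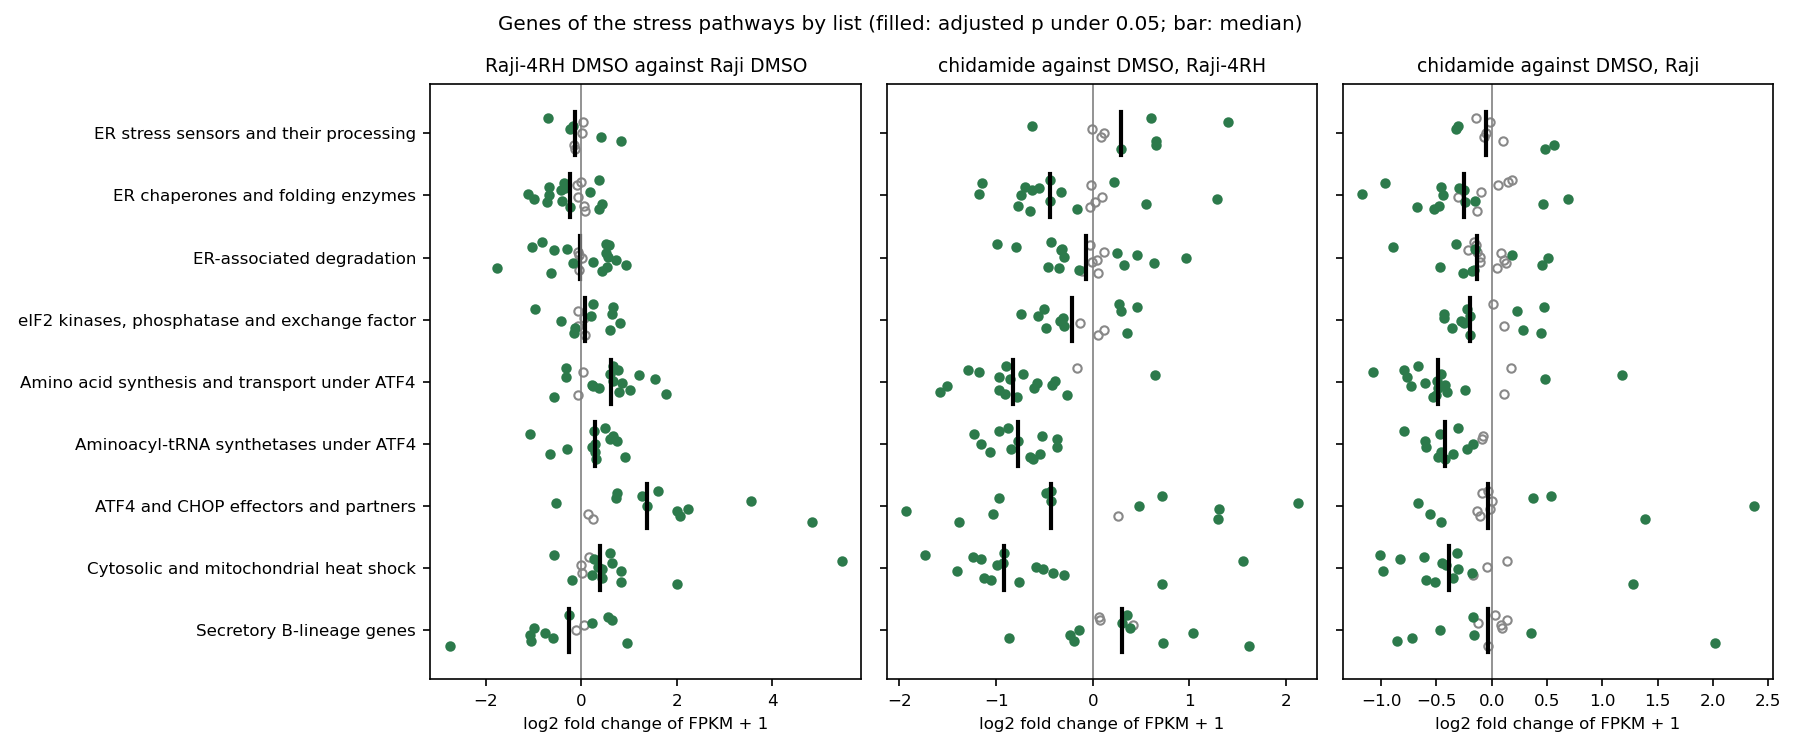
Log2 fold change of FPKM + 1 for every tested gene of the pathway lists, with Raji-4RH DMSO against Raji DMSO on the left and chidamide against DMSO in Raji-4RH and in Raji beside it. Each point is a gene, filled where the adjusted p-value was under 0.05, and the bar is the list's median. All 13 genes of the tRNA synthetase list, which includes XPOT, fell with chidamide in Raji-4RH. The 3 panels have their own horizontal scales.

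The supply genes that ATF4 is known to drive were higher in untreated Raji-4RH and fell with chidamide in both lines. Of 18 genes of amino acid synthesis and transport, 13 were higher and 3 lower in Raji-4RH DMSO than in Raji DMSO. Over all genes 41.2% were higher and 32.4% lower. The list's median difference was 0.63, beside 0.063 over all genes. With chidamide 16 fell and 1 rose in Raji-4RH, and 14 fell and 2 rose in Raji, with medians of -0.82 and -0.49. Over all genes 31.6% fell and 43.3% rose in Raji-4RH, and 28.5% fell and 31.5% rose in Raji. GPT2, an alanine transaminase, fell by 1.58 in Raji-4RH and 0.40 in Raji. PSAT1, of serine synthesis, fell by 1.51 and 0.73. SLC38A2, a neutral amino acid carrier, rose by 0.65 and 1.17. The list of tRNA synthetases also held XPOT, which exports tRNA from the nucleus and is not a synthetase. All 13 genes of this list fell in Raji-4RH, although 12 did under quantile normalization. In Raji 11 fell, and the medians were -0.77 and -0.42. Between the DMSO groups 10 were higher and 3 lower in Raji-4RH, beside the same 41.2% and 32.4% of all genes. WARS fell by 1.23 and 0.47, and MARS, the neighbour of DDIT3, fell by 1.16 in Raji-4RH, beside a log2 change of -0.17 in Raji (adjusted p = 0.0355, limma) that was lost when any 1 of the 4 Raji libraries (adjusted p from 0.0655 to 0.150) or of the Raji-4RH DMSO libraries (0.0641 and 0.0640) was left out and under quantile normalization (-0.048, adjusted p = 0.459).

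Effectors and partners of ATF4 and CHOP moved in both directions with chidamide. Of 13 tested, 10 were higher and 1 lower in Raji-4RH DMSO than in Raji DMSO, beside 41.2% and 32.4% of all genes. Their median difference was 1.37, beside 0.063 over all genes. With chidamide 5 rose and 7 fell in Raji-4RH, and 4 rose and 3 fell in Raji (4 and 6 under quantile normalization). Of all genes 43.3% rose and 31.6% fell in Raji-4RH, and the 31.5% and 28.5% in Raji are close to the list's shares there. CHAC1, a glutathione-degrading enzyme, was at 16.2 and 15.5 FPKM with DMSO and 3.26 and 3.56 with chidamide in Raji-4RH, and at 3.08 and 3.35 with DMSO and 3.30 and 2.43 with chidamide in Raji. The untreated Raji-4RH libraries stood far above the other 3 groups, with a log2 fall of 1.93 in Raji-4RH and a log2 change of -0.13 in Raji (adjusted p = 0.295, limma). The Raji value passed the threshold under quantile normalization (-0.30, adjusted p = 0.0329) and without Raji chidamide replicate 1 (-0.30, adjusted p = 0.0254), and its sign turned without Raji chidamide replicate 2 (0.030). ATF5, a factor related to ATF4, was at 95.9 and 100.3 FPKM in Raji-4RH DMSO and 2.67 and 2.35 in Raji DMSO, and it fell by 1.38 and 0.46 with chidamide. GDF15, a stress-induced cytokine, was at 0.256 and 0.181 FPKM with DMSO and 4.01 and 4.61 with chidamide in Raji-4RH, and at 0.655 and 0.856 with DMSO and 0.0930 and 0.115 with chidamide in Raji. It rose by 2.12 in Raji-4RH and fell by 0.67 in Raji, where 4 and 5 reads remained. GDF15 passed the filter only through Raji-4RH chidamide, the group where it was high, so its rise there is conditional on the filter. CLGN, an ER chaperone, rose by 1.31 in Raji-4RH. In Raji it had 0 and 1 reads with DMSO and 0 and 0 with chidamide, so its log2 change there (-0.011) is no measure of an effect.

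The eIF2 machinery was mixed. Of 14 genes, 4 rose and 7 fell in Raji-4RH, and 4 rose and 8 fell in Raji, beside 43.3% and 31.6% of all genes in Raji-4RH and 31.5% and 28.5% in Raji. PPP1R15A, the regulatory subunit GADD34 that returns eIF2 to its active form, was higher with chidamide by 0.46 in Raji-4RH (adjusted p = 0.00708, limma), lost without Raji-4RH DMSO replicate 1 (0.40, adjusted p = 0.0518). In Raji it was higher by 0.47 (adjusted p = 0.00792), lost without Raji DMSO replicate 2 (0.42, adjusted p = 0.0571). The kinase EIF2AK2 rose by 0.36, a call lost under quantile normalization (0.14, adjusted p = 0.0571), and by 0.44 in Raji. The 3 subunits of eIF2 did not move together. EIF2S2 fell by 0.74 and 0.43, and EIF2S1 fell by 0.57 in Raji-4RH. EIF2S3, named after its values were seen, rose by 0.29 in Raji-4RH (adjusted p = 0.00653). Its log2 change in Raji was 0.23 (adjusted p = 0.029), lost when either Raji-4RH DMSO library or any 1 of the 4 Raji libraries was left out (adjusted p from 0.0563 to 0.145), with median-centred libraries (0.18, adjusted p = 0.0892) and with no filter (adjusted p = 0.0566). In Raji EIF2S1 had a log2 change of -0.20 (adjusted p = 0.00774), lost without Raji chidamide replicate 2 (-0.19, adjusted p = 0.0564) and under quantile normalization (-0.11, adjusted p = 0.102).

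Outside the ER, cytosolic and mitochondrial heat shock genes fell in 14 of 16 cases in Raji-4RH and 12 of 16 in Raji. Of all genes 31.6% and 28.5% fell. The list's medians were -0.92 and -0.38. HSPH1 fell by 1.73 and 1.01, and HSP90AA1 by 1.41 and 0.98. HSPB1, a small heat shock protein, rose by 1.55 in Raji-4RH, where it was at 49.0 and 55.1 FPKM with DMSO, and its highest level in a Raji library was 0.353 FPKM. The co-chaperone BAG3 rose by 0.72 and 1.28. Secretory B-lineage genes were higher with chidamide in 6 of 13 cases in Raji-4RH and lower in 4, against 2 and 5 in Raji, and quantile normalization gave 10 and 1 in Raji-4RH. The Raji-4RH shares are close to the 43.3% higher and 31.6% lower of all genes. CD38 rose by 1.62 in Raji-4RH, beside a log2 change of -0.030 in Raji. IRF4, a plasma cell factor, rose by 0.73 and 2.01, and MZB1, an ER co-chaperone of antibody assembly, fell by 0.87 and 0.72. POU2AF1 had log2 changes of -0.23 in Raji-4RH (adjusted p = 0.00329, limma), which turned under quantile normalization (0.0061, adjusted p = 0.924), and of -0.16 in Raji (adjusted p = 0.0274), which was lost there (-0.043, adjusted p = 0.492), without Raji DMSO replicate 1 (-0.12, adjusted p = 0.139), without Raji chidamide replicate 1 (-0.16, adjusted p = 0.109) and without Raji chidamide replicate 2 (-0.15, adjusted p = 0.129).

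The genes whose pattern over the 8 libraries was most like that of a member were found by the root mean square difference of log2(FPKM + 1), each gene centred on its own mean, among the 6614 tested genes whose mean was 5 FPKM or more. For TRIB3 they were CDK2AP1 (0.211), PITX1 (0.234) and MAP3K20 (0.287). For ASNS they were SLC43A2 (0.129), SORD (0.140) and FAM167A (0.146). For DDIT3 they were PRKAR2B (0.0800), FAM217B (0.0865) and MZT2A (0.103), and for ATF3 they were DZIP3 (0.0762), PDP1 (0.0826) and MAP3K1 (0.0955). These likenesses are over 4 groups of 2 libraries and are a description.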

How the data were processed

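RNA-seq libraries, 2 per group, came from both lines under DMSO or chidamide (NEBNext Ultra kit, HiSeq X). The submitters' processing notes name HISAT2 2.0.5, SAMtools 1.7, HTSeq 0.9.1 and DESeq2 1.22.2 with hg38; the strand setting is not given in the sources used here. The authors deposited FPKM values for all libraries in 1 table. Its 63967 labels stand beside 63305 rows of values, with 662 repeated at the end, so values were read at the offset given for each stretch of rows, which placed 18143 labels and 90.7% to 93.2% of the reads, and rescaled to the gene's own length. FPKM times length and total gave whole reads (tolerance 0.05) for 100.0% of values.

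Differences were tested with limma 3.58.1 (trend; R 4.3.3) on log2(FPKM + 1). A single model of the 4 group means took in all 8 libraries and the 10710 placed genes that reached 1 FPKM in 2 or more libraries, with Benjamini-Hochberg adjustment over all of them and a threshold of 0.05. With 2 libraries against 2, an exact two-sided permutation p cannot go below 0.333, so the p-values rest on spread shared between genes. Data were simulated for chidamide in Raji-4RH with 10710 genes. Of genes changed 1.5-fold 39 of 50 were called, 49 of 50 changed 2-fold, 50 of 50 changed 4-fold and 48 of 50 changed 0.5-fold. Of the unchanged genes 9 were called. The simulation gave every group the same dispersion and changed few genes, whereas 74.9% of genes were called in the data. Its rates thus do not describe groups of unequal noise. The replicates of a group differed by more than sampling noise, so none is a library deposited again. Chi-square per degree of freedom was 2.26 in Raji-4RH DMSO, 14.02 in Raji-4RH chidamide, 4.86 in Raji DMSO and 1.75 in Raji chidamide. The single model gives a gene the same SE in both lines, so this unequal noise is not carried into the p-values of each line.

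The genes and the lists were chosen with earlier results of these data known. Named in the text are all 10 members, from each list the 2 largest rises and 2 largest falls among genes called in Raji-4RH whose mean reached 1 FPKM, and EIF2AK3, ATF6, XBP1 and PPP1R15A. TXNDC5, HSPA1A, HSPA1B and PECAM1 were not placed, and ATF6B, STC2, NUPR1, FGF21 and SDC1 did not pass the filter. A B cell marker of the list is not reported here. Alternatives were quantile normalization, median-centred libraries, a pseudocount of 0.1, other filters, no trend, only the libraries compared, a replicate block, voom on recovered reads, the row of the label, labels that are not shifted, and leaving out each library. A crossed block was added after the data were seen. Promoters are those of RefSeq, and tables and plots were made in Python 3.11.15 (numpy 2.4.6, pandas 2.3.3, matplotlib 3.10.9).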

Additional observations from a re-analysis of the deposited data

Results flagged for a closer look

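The chidamide effect differed between the lines, by the test of the difference itself (limma, adjusted p under 0.05 over all genes), for 6 members, beside 48.8% of all genes, and for 23 of the 35 other genes named. Most of these 35 were named for a large chidamide effect in Raji-4RH, which is a term of the difference, so their count is not set against that of all genes. The effect in Raji-4RH minus that in Raji, on the log2 scale, was lower for TRIB3 (-1.24), ATF4 (-0.42) and HSP90B1 (-0.38), and higher for ERN1 (0.62), DNAJB9 (0.46) and HERPUD1 (0.45). Among sensors it was 1.41 for WFS1, 0.75 for XBP1 and -0.33 for TRAF2. Among chaperones and degradation genes it was 0.59 for ERO1B, 0.46 for HERPUD2, 0.50 for EDEM3 and -0.67 for UFD1. For EIF2S1 it was -0.37.

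Amino acid genes had values of -1.18 for GPT2, -0.78 for PSAT1 and -0.53 for SLC38A2, and the tRNA synthetases -0.99 for MARS and -0.76 for WARS. ATF4 and CHOP effectors had 2.79 for GDF15, 1.32 for CLGN, -1.80 for CHAC1 and -0.93 for ATF5. CLGN had at most 1 read in a Raji library, so its difference rests on its change in Raji-4RH. With voom on recovered reads it did not pass the test (2.36, adjusted p = 0.102). Heat shock genes had 1.41 for HSPB1, -0.56 for BAG3, -0.72 for HSPH1 and -0.43 for HSP90AA1. With voom HSPB1 had 0.93 (adjusted p = 0.411). BAG3 was lost under quantile normalization (-0.22, adjusted p = 0.248), without Raji-4RH DMSO replicate 2 (-0.49, adjusted p = 0.0627), without Raji DMSO replicate 2 (-0.52, adjusted p = 0.0591) and without Raji chidamide replicate 1 (-0.45, adjusted p = 0.0598). TRAF2 was lost without Raji-4RH DMSO replicate 2 (-0.30, adjusted p = 0.0614), without Raji DMSO replicate 2 (-0.27, adjusted p = 0.0518) and without Raji chidamide replicate 1 (-0.28, adjusted p = 0.0694). Of the secretory genes, CD38 had 1.65 and IRF4 -1.29.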

How the results depend on the processing

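Of 442 log2 values of members under alternatives other than leaving out a library, 426 kept their direction and their side of the threshold. Of 200 with a library left out 184 did, and the cause of the changes was not tested. No trend, other filters, only the libraries compared, the blocks and labels that are not shifted leave a log2 value unchanged by construction. So does the row of the label for members that are not shifted. Under these the direction could not turn, so only the side of the threshold could change. In the row of its label, DDIT3 had log2 changes of 0.93 in Raji-4RH, 0.19 in Raji and -1.63 between the DMSO groups, and of the 7 members that could be tested 7 were called in Raji-4RH, 3 in Raji and 5 between the DMSO groups, beside 8063, 6438 and 7862 of 10726 genes. With only labels that are not shifted, 6 members and 4331 genes could be tested, and 6 members were called in Raji-4RH, 3 in Raji and 4 between the DMSO groups, beside 3326, 2702 and 3258 genes, with 2178 genes for the difference of effects. Quantile normalization turned the signs of ATF4 in Raji (0.097), of DNAJB9 between the DMSO groups (-0.027), and of the differences of effects of HSPA5 (0.086) and ASNS (0.16), none past the threshold. The difference for ATF3 turned with a pseudocount of 0.1 (-0.28) and with voom (-0.43). The signs of WFS1 and CD38 in Raji, close to 0, turned without Raji DMSO replicate 2 (0.027 and 0.0061). Leaving out a library of the groups compared gave 8 to 10 members called in Raji-4RH, 6 to 7 in Raji, 4 to 7 for the difference and 7 to 8 between the DMSO groups, among 7168 to 8087, 5128 to 5483, 4044 to 6042 and 6960 to 7132 genes. Same-numbered libraries correlated at 0.166 (Raji-4RH DMSO and chidamide) down to -0.279 (Raji-4RH chidamide and Raji DMSO). The numbers thus give no uniform pairing, and whether libraries of different groups share a batch was not tested. With the replicate block 10, 7, 6 and 8 members were called, among 7886, 6183, 4915 and 7748 genes. MARS (adjusted p = 0.0584) and POU2AF1 (adjusted p = 0.0512) in Raji lost their calls under the block. With the Raji DMSO numbers exchanged the block gave 8190, 6587, 5509 and 8037 genes. The difference of effects needs all 8 libraries, so it has no value for only the libraries compared. Depth limits ATF3, with 23 to 194 reads per library, and GDF15, with 4 and 5 reads in Raji chidamide. It also limits CLGN and HSPB1 in Raji, with 0 to 1 and 6 to 12 reads per library.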
